A study of Astyanax mexicanus with 6 samples.

Results

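Liver RNA of Pachon cavefish was compared with liver RNA of Tinaja cavefish, 2 eyeless cave populations of the Mexican tetra, Astyanax mexicanus. The comparison rests on 4 of the 6 libraries of the series, Pachon 1 and 2 and Tinaja 1 and 2, chosen by their population label. The other 2 libraries, from liver of the river-dwelling Surface form, helped to estimate the spread between libraries and show which cave departs from Surface. All 6 libraries were stranded polyA RNA libraries of liver, and the labels name no treatment, genetic change, age, sex or feeding state for any population. Nothing in the labels ties the paired libraries to different animals. The p-values therefore reflect only how far these libraries spread, which may be technical.

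Cave populations of this species descend from surface fish and live in darkness with little food. Cavefish are known for storing more fat than surface fish, and the liver is the organ that handles fat, glucose, bile acids and most plasma proteins.

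The deposited table gives whole-number read counts for 27420 Ensembl gene identifiers without names, and 0 of them matched the reference table. Genes are therefore described by their levels, and 4 are printed by identifier. No marker of liver or of another cell type could be looked up, so the tissue label and the cell makeup of the libraries were not checked, and fewer cells of a type cannot be told apart from less RNA per cell. Library totals ran from 22168622 to 25945144 counts in the caves. The 20 most abundant genes took 31.7% and 26.5% of the counts in Pachon 1 and 2 but 38.2% and 48% in Tinaja 1 and 2, so Tinaja 2 stood apart in the share taken by a few genes. Levels are given as CPM, counts per 1000000 of the library size scaled by TMM, a method that assumes most genes do not change.

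Of 15282 genes with enough counts, 1409 differed between the caves at an adjusted p below 0.05 in edgeR's quasi-likelihood test, and such genes are termed called. They made up 9.22% of the genes tested, with 683 higher in Pachon (4.47%) and 726 lower (4.75%). The differences were often large. The median log2 fold change was 1.91 for the higher genes and -1.98 for the lower ones, against a median size of 0.43 over all genes tested. A difference of at least 2-fold was fitted for 606 of the higher and 655 of the lower genes, and one of at least 8-fold for 187 and 219. In 57 of the higher and 51 of the lower genes the lower cave had 0 reads. These genes entered the medians and fold counts at a bound set by 3 reads over that cave, and entering them at their fitted values left both medians the same. When the test asked for more than a 2-fold difference (edgeR's TREAT), 409 genes passed, 2.68% of those tested, 184 higher and 225 lower in Pachon. Leaving out Pachon 1, Pachon 2, Tinaja 1 or Tinaja 2 gave 252, 190, 183 or 162 such calls.

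**Figure D1:**
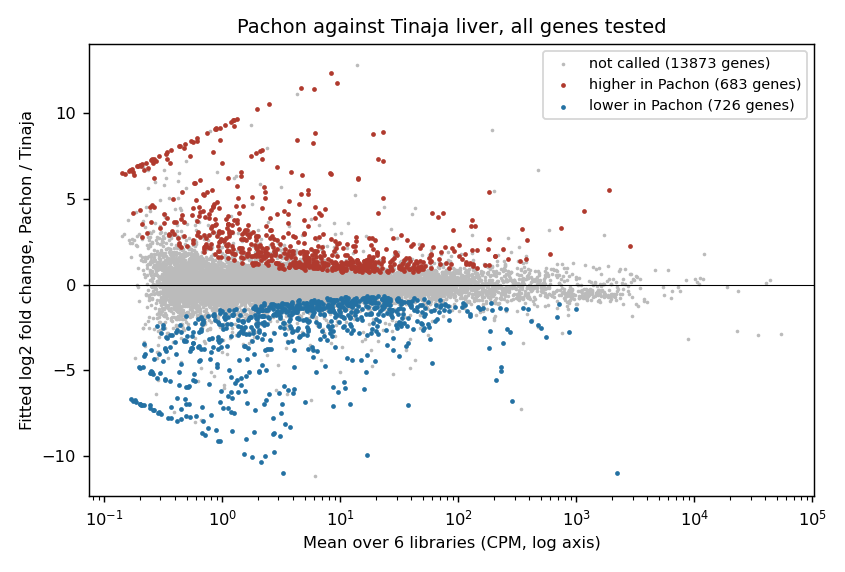
Each point is 1 of the 15282 genes tested, with its mean over all 6 libraries in CPM (log axis) and its fitted log2 fold change of Pachon over Tinaja. The 683 red and 726 blue points are genes called higher and lower in Pachon, and they lie on both sides of 0 up to about 1000 CPM. The slanted rows of points at the left edges are genes with no read in 1 cave, whose fitted value depends on the prior count.

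Single libraries bear on these counts. Libraries of a cave lay close together for most genes, with a median difference on the log2(CPM + 0.5) scale of 0.20 between Pachon 1 and 2 and of 0.26 between Tinaja 1 and 2. In each called gene both libraries of 1 cave lay above both of the other, but so they did in 9335 genes, 61.1% of those tested, and the 7926 of them that were not called had a median log2 size of 0.57. Every Pachon library was at least 2-fold above every Tinaja library in 486 of the 683 higher genes, and every Tinaja library was at least 2-fold above every Pachon library in 533 of the 726 lower genes. Of the 15282 genes tested, 1506 were separated in this way in either direction, and 487 of those were not called. A call favours such a gap, so these counts add no support. With 2 libraries a cave, leaving out any cave library lowered the count of calls by more than 1.5 times. Without Pachon 1 it was 505, without Pachon 2 it was 380, without Tinaja 1 it was 890 and without Tinaja 2 it was 352. Of those calls, 441, 356, 640 and 331, in the same order, were among the 1409 genes with the same direction. In these fits the lone library of a cave is assumed to vary like the other populations.

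The direction of the calls depended on how libraries were scaled. With total counts in place of TMM, the middle log2 fold change over the genes tested moved from 0 to 0.48, and 2771 genes were called, 2300 higher and 471 lower in Pachon. The higher share was then 83%, against 48.5% with TMM. Leaving the 20 most abundant genes out of the totals moved the median to 0.16, and 909 genes were called higher and 568 lower, a higher share of 61.5%. Directions given here are relative to the TMM median.

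**Figure D2:**
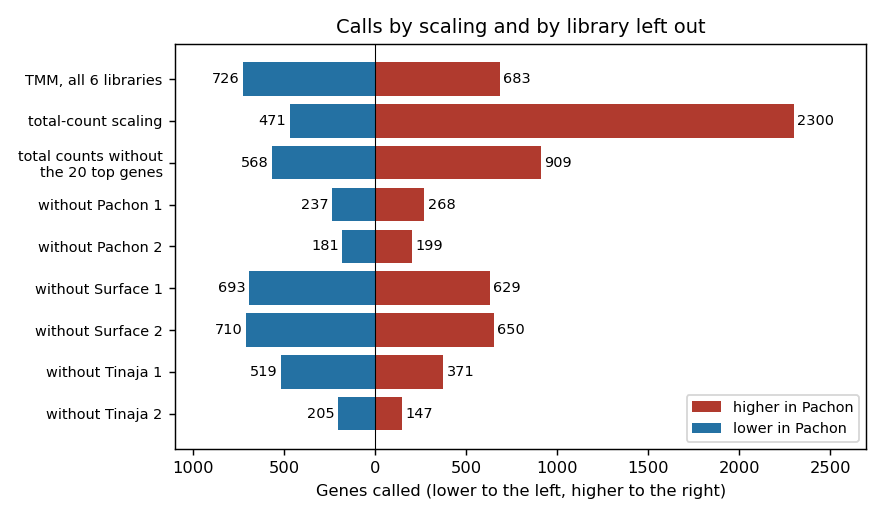
Bars count the genes called higher in Pachon (right, red) and lower (left, blue) with TMM scaling and all 6 libraries, with 2 other scalings, and with each library left out. Total-count scaling gave 2300 higher against 471 lower genes, and leaving out Tinaja 2 gave 147 against 205.

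By fitted fold, genes with reads in Pachon and 0 or few reads in Tinaja led the genes higher in Pachon. Where a cave had 0 reads, the fitted fold depends on the prior count. Whether 0 reads meant no RNA or reads that were not mapped or counted was not tested. First by fold, among called genes with at least 10 CPM in the higher cave, was ENSAMXG00000000107. It had 26.2 and 24.3 CPM in Pachon 1 and 2 and 0 reads in both Tinaja and both Surface libraries. It was at least 363-fold higher in Pachon than a floor of 3 reads over Tinaja (edgeR adjusted p = 0.000642), and its call held under all 15 alternatives computed for single genes, with a highest edgeR adjusted p of 0.00504. Pachon thus stood alone for this gene.

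The second by fold differed in its Surface level. It had 16.3 and 17.3 CPM in Pachon 1 and 2 and 7.85 and 14.7 CPM in Surface 1 and 2, but 0 reads in both Tinaja libraries, at least 243-fold below Pachon (edgeR adjusted p = 0.000928). Here Tinaja was the population that stood apart, and Pachon did not pass the test against Surface (log2 fold change 0.57 ± 0.31 SE, edgeR adjusted p = 0.254). The fourth by fold also had 0 reads in Tinaja, with 11.7 and 14.9 CPM in Pachon and 3.10 and 5.99 CPM in Surface, a bound of 194-fold between the caves (edgeR adjusted p = 0.00125). Pachon was called above Surface in that gene, by 1.55 ± 0.35 in log2 units (± SE, edgeR adjusted p = 0.0298). The third by fold again marked Pachon alone, with 12.1 and 15.6 CPM there, 0 reads in Tinaja and 1 read in Surface, a bound of 202-fold against Tinaja (edgeR adjusted p = 0.000654). The fifth had 88.8 and 46.6 CPM in Pachon, 0.16 and 0.11 CPM in Tinaja and 1.12 and 2.23 CPM in Surface. Surface thus lay between the caves, which differed by 8.89 ± 0.60 in log2 units (± SE, edgeR adjusted p = 0.000654). Pachon had 476 times the level of Tinaja, with counting error allowing 218 to 1300 times. The counts therefore do not settle its rank below the genes with 0 reads in Tinaja, for which only a bound is known.

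Genes ranked by their excess of Pachon in CPM had smaller folds than those ranked by fold, which follows from the ranking. Among called genes, the largest excess of Pachon in CPM was that of ENSAMXG00000016035, with 3594 and 4445 CPM in Pachon 1 and 2, 833 and 873 CPM in Tinaja 1 and 2, and 2163 and 5107 CPM in Surface 1 and 2. The cave libraries did not overlap, as in every called gene, while the Surface libraries lay on either side of both Pachon libraries. Between the caves it differed by 2.24 ± 0.46 in log2 units (± SE, edgeR adjusted p = 0.0281). Removing any cave library lost the call, at edgeR adjusted p = 0.0869 and 0.131 for Pachon 1 and 2 and 0.0944 and 0.151 for Tinaja 1 and 2.

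The gene with the next largest excess had 558 and 1484 CPM in Pachon against 135 and 71.4 CPM in Tinaja, and 962 and 1215 CPM in Surface. The log2 difference was 3.31 ± 0.56 (SE, edgeR adjusted p = 0.0157), and the call was lost without Pachon 2 (edgeR adjusted p = 0.0557) and without Tinaja 2 (edgeR adjusted p = 0.115). The third was more even between libraries, with 956 CPM in each Pachon library, 51.7 and 47.9 CPM in Tinaja and 2767 and 2172 CPM in Surface. It was higher in Pachon by 4.26 ± 0.33 (log2, SE, edgeR adjusted p = 0.000798). Over the 15 alternatives the value ran from 4.21 to 4.74 and the call held, the highest edgeR adjusted p being 0.0108. In all 3 of these genes Tinaja had the lowest level of the 3 populations.

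On the other side, ENSAMXG00000042564 was first by fold, among called genes with at least 10 CPM in the higher cave, and first by CPM difference among called genes. Pachon 1 and 2 had 1.37 and 0.89 CPM, Tinaja 1 and 2 had 3416 and 1148 CPM, and Surface 1 and 2 had 4005 and 4755 CPM. An abundant transcript of Surface and Tinaja liver thus had few reads in both Pachon libraries. The log2 fold change between the caves was -10.98 ± 0.80 (SE, edgeR adjusted p = 0.000643), and it stayed between -11.57 and -9.96 over the 15 alternatives.

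Several of the next genes by fold were near zero in Pachon and in Surface. The second by fold in this direction had 65.2 and 36.1 CPM in Tinaja 1 and 2, against 3 reads over both Pachon libraries and 3 over both Surface libraries. Tinaja had 1150 times the level of Pachon, with counting error allowing 392 to 5570 times (edgeR adjusted p = 0.0015). The third had 11.6 and 11.0 CPM in Tinaja and 1 read in each of the 4 other libraries. Tinaja exceeded Pachon 368 times in this gene, with counting error allowing 101 to 3050 times. Its edgeR adjusted p of 0.000158 was the lowest of the 17 described genes. In both, Tinaja stood alone as Pachon did for the first gene by fold.

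The fourth and the fifth had Surface between the caves. One had 0.20 and 0.14 CPM in Pachon, 1.24 and 2.68 CPM in Surface and 19.8 and 28.1 CPM in Tinaja, and Pachon differed from Tinaja by -7.10 ± 0.49 in log2 units (± SE, edgeR adjusted p = 0.000643). The other had 1.00 and 0.63 CPM in Pachon, 3.02 and 5.23 CPM in Surface and 136 and 79.4 CPM in Tinaja, and a log2 difference of -7.05 ± 0.48 (SE, edgeR adjusted p = 0.000643). Pachon was called below Surface and Tinaja above it in both genes.

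By CPM, ENSAMXG00000013876 came after ENSAMXG00000042564. It had 257 and 225 CPM in Pachon 1 and 2, 1683 and 1542 CPM in Tinaja 1 and 2, and 1102 and 439 CPM in Surface 1 and 2. Surface lay between the caves with widely spaced libraries. Pachon differed from Tinaja by -2.74 ± 0.47 in log2 units (± SE, edgeR adjusted p = 0.0148). This call too needed all 4 cave libraries, with edgeR adjusted p = 0.085 and 0.119 when Pachon 1 or 2 was left out and 0.0528 and 0.0705 when Tinaja 1 or 2 was. The third by CPM had 243 and 177 CPM in Pachon, 1202 and 996 CPM in Tinaja and 129 and 93.7 CPM in Surface, so Tinaja stood above both other populations. It was lower in Pachon by -2.39 ± 0.33 (log2, SE, edgeR adjusted p = 0.00713), a call lost without Pachon 2 (edgeR adjusted p = 0.0794).

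**Figure D3:**
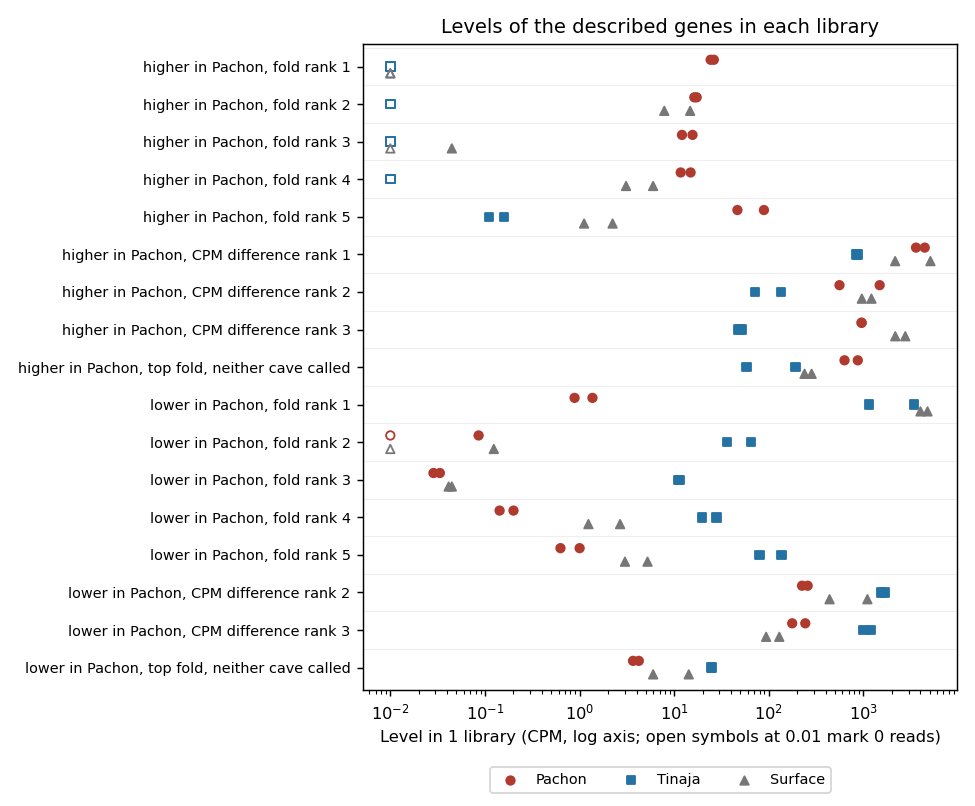
Rows are the 17 described genes named by direction and rank, and points give the level in each of the 6 libraries in CPM (log axis). Open symbols at the left mark libraries with 0 reads. The circles of Pachon and the squares of Tinaja do not overlap in any row, which was a condition for picking the genes. The triangles of Surface lie near Pachon, near Tinaja, between the caves or, as in CPM difference rank 3 of both directions, beyond both.

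Called genes were shared out by which cave also passed the test against Surface. Against Surface, 16.9% of all genes tested were called in Pachon and 15.8% in Tinaja. These 3 comparisons share libraries, so the split describes the calls and tests no overlap. Of the 1409 genes called between the caves, 504 were called against Surface only in Pachon and 445 only in Tinaja. Another 164 were called in both caves, 120 of them on the same side of Surface and 44 on opposite sides, and 296 were called in neither. For comparison, 6.21% of the genes not called between the caves were called against Surface only in Pachon and 5.38% only in Tinaja, 7.6% in both on the same side, and 80.8% in neither. The 120 same-side genes were 8.52% of the called genes, near that share of the genes not called.

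The numbers in these classes were as follows by direction. Among the 683 genes higher in Pachon, 295 were called only for Pachon, all above Surface, and 155 only for Tinaja, all below Surface. Among the 726 genes lower in Pachon, 209 were called only for Pachon, all below Surface, and 290 only for Tinaja, all above Surface. The side of Surface nearly follows from how the classes were formed, and so do the sizes, which are given as a description. Where only Pachon was called, log2 fold changes against Surface had a median size of 2.16 for Pachon and 0.37 for Tinaja, and where only Tinaja was called they had one of 0.36 for Pachon and 1.99 for Tinaja.

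A cave that did not pass the test against Surface was not thereby shown to be like it. Among the 504 genes called only for Pachon, the 95% interval of Tinaja against Surface lay within 2-fold in 165 (32.7%), against 35.3% of all genes tested. Among the 445 called only for Tinaja, the interval of Pachon against Surface lay within 2-fold in 156 (35.1%), against 35.7% of all genes tested. The remaining intervals reached 2-fold or could not be computed.

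Where neither cave was called against Surface, the caves differed by a median log2 size of 1.40. A smaller size here nearly follows from how the class was formed, so it is no separate result. Genes of this class with at least 10 CPM in the higher cave were ranked by fold. The first among those higher in Pachon had 872 and 631 CPM in Pachon. It had 238 and 283 CPM in Surface and 190 and 58.1 CPM in Tinaja. Pachon exceeded Tinaja by 2.60 ± 0.55 in log2 units (± SE, edgeR adjusted p = 0.0329). The call did not hold without Pachon 1 (edgeR adjusted p = 0.122), Pachon 2 (0.0964), Tinaja 2 (0.0696), Surface 1 (0.0544) or Surface 2 (0.053), and with only the cave libraries in the fit (0.0516). Its counterpart among the lower genes had 3.67 and 4.23 CPM in Pachon, 5.99 and 14.3 CPM in Surface and 24.4 and 25 CPM in Tinaja, and a log2 difference of -2.64 ± 0.39 (SE, edgeR adjusted p = 0.0106). It was lost without Pachon 1 (edgeR adjusted p = 0.0731), Pachon 2 (0.0749) and Tinaja 2 (0.0766). In both genes Surface lay between the caves.

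The mean level of Surface lay between those of the caves in 853 of the 1409 called genes (60.5%) and in 26.4% of the genes not called. It was below both caves in 317 called genes and above both in 239. A wider gap between the caves leaves more room for a value between them, so the difference of these shares is no separate result.

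**Figure D4:**
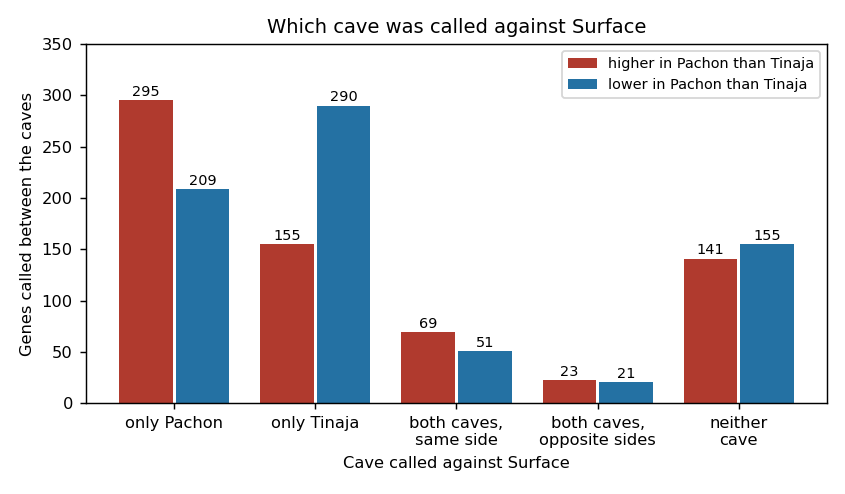
Bars count the genes called between the caves by which cave was also called against Surface, with genes higher in Pachon in red and lower in blue. The largest bars are the 295 genes higher in Pachon and called against Surface only for Pachon, and the 290 genes lower in Pachon and called only for Tinaja.

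The class sizes moved with the libraries used. The class of only Pachon held 180 genes without Pachon 1, 139 without Pachon 2 and 160 without Tinaja 2. The class of only Tinaja held 197 or 154 with Pachon 1 or 2 left out, and 296 or 110 with Tinaja 1 or 2 left out. The class of both held 62 without Pachon 1, 52 without Pachon 2, 86 without Tinaja 1, 53 without Tinaja 2 and 95 without Surface 1. The class of neither rose to 570 without Surface 1 and 574 without Surface 2, and leaving out Pachon 1, Pachon 2, Tinaja 1 or Tinaja 2 left 66, 35, 170 or 29 genes in it. With total counts the class of only Pachon held 1368 genes.

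With all 6 libraries, between 8.78% and 10.3% of the genes were called in each bin of mean level from below 1 CPM up to 1000 CPM, near the 9.22% of all genes. The filter asked for enough counts in only as many libraries as 1 population holds. Genes below 1 CPM could thus pass through the population where they were high, so the share of the lowest bin depends on the filter. At a mean of 1000 CPM or more, the median log2 fold change was -0.40, and 121 of 173 genes had a negative value. From 100 to 1000 CPM the median was -0.12, and 415 of 729 genes had a negative value. These values are relative to the TMM median. Of the 173 genes in the top bin, 4 were called (2.31%). Leaving out Surface 1, or keeping only the cave libraries in the fit, left 2. How far the top bin stood below the others depended on having both libraries of each cave. With any cave library left out, the shares called from 1 to 10 and from 10 to 100 CPM still exceeded that of the top bin. The lowest and the second highest bin did not always do so. Without Pachon 2, 1.75% of the genes were called at 1000 CPM or more, 1.29% from 100 to 1000 CPM and 1.91% below 1 CPM, and without Tinaja 2 these shares were 1.7%, 1.73% and 1.08%. Without Pachon 1 they were 2.34%, 2.54% and 2.26%. Without Tinaja 1 they were 2.31%, 6.81% and 2.07%, so the bin below 1 CPM was then as low as the top. From the estimate to either end, the 95% interval of the log2 fold change spanned a median of 1.29 below 1 CPM, 0.69 from 1 to 10 CPM, 0.51 from 10 to 100 CPM, 0.74 from 100 to 1000 CPM and 0.85 at 1000 CPM or more.

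Of those 4 genes, 3 are described above. The fourth, picked after its values were seen, had 7362 and 3972 CPM in Surface 1 and 2, 35.8 and 28.0 CPM in Pachon 1 and 2, and 0.52 and 0.89 CPM in Tinaja 1 and 2. Pachon exceeded Tinaja by 5.52 ± 0.52 in log2 units (± SE, edgeR adjusted p = 0.00154). Both caves were thus far below Surface, Tinaja further than Pachon.

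**Figure D5:**
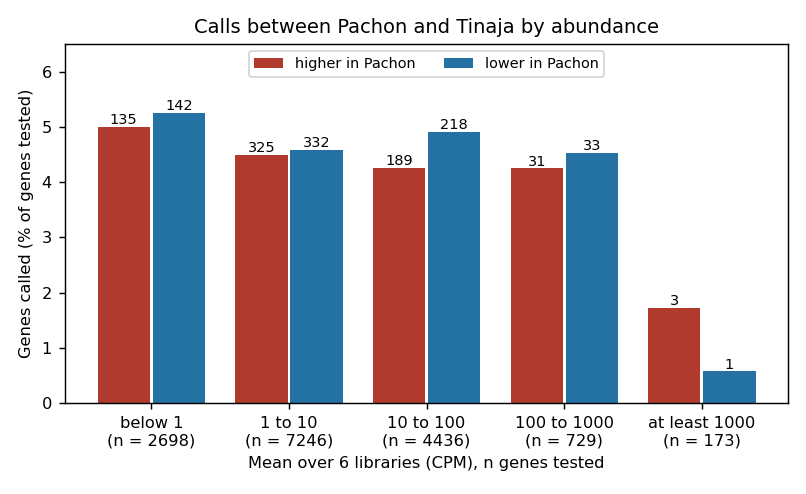
Bars give the percent of genes called higher (red) and lower (blue) in Pachon within bins of the mean level over 6 libraries in CPM, with the number of called genes above each bar. The bin of at least 1000 CPM, with 3 higher and 1 lower of 173 genes, stands below the other bins when all 6 libraries are used.

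Among the 6 most abundant genes of the table, none of which was called between the caves, 3 had close levels in them. The second most abundant had 29419 and 33666 CPM in Pachon and 31838 and 19678 CPM in Tinaja, overlapping ranges with a 95% interval of the log2 fold change from -0.65 to 1.23. The third had 31501 and 31420 CPM in Pachon and 33528 and 24546 CPM in Tinaja, with an interval from -0.74 to 0.97, within 2-fold. The fifth had 16049 and 15057 CPM in Pachon and 23760 and 17254 CPM in Tinaja, with an interval from -1.23 to 0.43. The other 3 were several-fold higher in Tinaja, but their 2 Pachon libraries were, as a ratio, further apart than the mean levels of the caves. The most abundant of them had 33929 and 3445 CPM in Pachon 1 and 2 and 81751 and 193739 CPM in Tinaja 1 and 2. Its interval ran from -6.69 to 0.93 (edgeR adjusted p = 0.282). The other 2 of these had 21159 and 2090 CPM, and 16235 and 1594 CPM, in Pachon 1 and 2. In Tinaja 1 and 2 they had 53178 and 125268 CPM, and 34494.5 and 81391 CPM. In all 3 genes the Surface libraries were far apart as well. Library 1 was above library 2 in Pachon and Surface and below it in Tinaja each time. The 3 genes thus showed 1 shared pattern between libraries and are not 3 separate cases. In order of abundance, Surface 1 and 2 had 13538 and 1339 CPM, 3860 and 418 CPM, and 3959 and 375 CPM.

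Some large differences were not called. A fitted log2 fold change of at least 3 in size and at least 10 CPM in the higher cave were found in 110 genes, of which 77 were called and 33 were not. In all 33 the libraries of the caves did not overlap, but so they did in 61.1% of all genes tested. Picking genes by a large fold favours this, so it adds no support. In 30 of the 33 the libraries of Pachon or of Tinaja were more than 2-fold apart. In 5 of the 33 the libraries of a cave were, as a ratio, further apart than the mean levels of the caves. A gene of the 33 had 4717 and 261 CPM in Pachon, 2872 and 237 CPM in Surface and 8975 and 36114 CPM in Tinaja. Another had 164 and 5.14, 132 and 10, and 295 and 1499 CPM in the same order. Both repeated the pattern of the 3 abundant genes above and are not separate cases. Not all of the 33 followed it. Over the 33 genes, edgeR adjusted p ran from 0.0525 to 0.336. The gene with the highest fitted value of all, not called, had 61.5 and 9.48 CPM in Pachon 1 and 2 and 0 reads in Tinaja, at least 482-fold above the floor (edgeR adjusted p = 0.0672), with 2.69 and 10 CPM in Surface. These genes were picked out after their values were seen.

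Over all genes tested, the 95% interval of the log2 fold change between the caves lay within 2-fold in 5881 (38.5%). For 7992 genes that were not called it reached 2-fold or could not be computed, the latter in 21 genes fitted at 0. A missing call for those 7992 genes does not show equal levels.

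Some genes were on in 1 cave and off in the other, where on means at least 1 CPM in each library and off means at most 3 reads over both. There were 55 such genes on in Pachon and 47 on in Tinaja. They were chosen from the same counts as the test, so the 51 and 43 of them that were called add no support. Their levels were low, with a median of 2.71 CPM and a range from 1.21 to 35.5 CPM for the genes on in Pachon, and a median of 3.33 CPM and a range from 1.23 to 50.6 CPM for those on in Tinaja. Surface was on for 8 of the 55 and off for 25, with the other 22 between. For the 47 genes on in Tinaja, Surface was on for 11, off for 16 and between for 20. In 26 of the 55 Tinaja had 0 reads, and in 8 Surface had none either. In 17 of the 47 Pachon had 0 reads, and in 3 Surface had none either. The numbers depend on the limits, since only 12 and 8 genes were on at 5 CPM. They also depend on scaled library size, with TMM factors of 1.208 and 1.35 in Pachon and 1.013 and 0.8143 in Tinaja. A limit of 3 reads is thus a lower CPM in Pachon, and off was easier to reach in Tinaja.

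Reads of the called genes made up a small part of each library. The genes higher in Pachon took 2.76% and 3.33% of the counts in Pachon 1 and 2, 0.739% and 0.495% in Tinaja 1 and 2, and 2.25% and 2.35% in Surface 1 and 2. The genes lower in Pachon took 0.87% and 0.889% of the counts in Pachon, 2.86% and 2.33% in Tinaja and 2.06% and 2.12% in Surface. For both sets the Surface libraries lay nearer to the cave with the higher share. Abundant genes weigh most in such shares. Among the genes higher in Pachon, 1 had 7362 and 3972 CPM in Surface 1 and 2, against 35.8 and 28.0 CPM in Pachon. Among the lower genes, ENSAMXG00000042564 had 4005 and 4755 CPM in Surface. The Surface shares therefore do not show where Surface lay in most of the genes. The cave shares follow from how the genes were chosen, and no share carries a test.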

How the data were processed

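The deposited table holds raw read counts per gene: its values are whole numbers and sum to different totals per library. The submitters' processing notes name bcl2fastq 2.20 and STAR. Genome build 2 and Ensembl release 96 appear in the table's name. How reads were counted, with which strand rule and with what treatment of multi-mapping reads, is not given in the sources used here. Values of near-identical, overlapping or antisense genes are uncertain for that reason. Counts were analysed in R 4.3.3 with edgeR 4.0.16. The filter by expression (count minimum 10) kept 15282 genes with 99.95% of the reads. All 6 libraries entered one robust quasi-likelihood fit with a term per population and 3 residual degrees of freedom, with Benjamini-Hochberg adjustment of p-values across all 15282 genes. The biological coefficient of variation came to 25.1%. A standard error is the size of the log2 fold change over the root of F, and intervals use the fit's total degrees of freedom. Bounds and counting intervals (exact 95% binomial) cover counting error only. Libraries of a population differed by more than read sampling, since chi-square per degree of freedom between their counts was 171 to 228. They were thus not the same library sequenced again, but may still come from the same RNA or fish. Tested on simulated data, the fit recovered most changed genes in the right direction. However, more of its calls were false than an adjusted p of 0.05 allows, so calls near the threshold are less certain. The simulation changed few genes, only by large folds and not at low counts. Its recovered and false shares therefore need not hold for the real calls. Alternatives were RLE factors, total counts, other filters, DESeq2 1.42.0, other samples, a replicate block and leaving out each library.

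The members, lists and tests were chosen with earlier results of these data known. Named genes were called genes whose cave libraries did not overlap. In each direction they were the first 5 by log2 fold change with 10 CPM or more in the higher cave's mean. Added to them were the first 3 by difference in mean CPM. The first by fold in each class of calls against Surface, under the same minimum of 10 CPM, completed the set. Of these, 2 per direction are printed by identifier. Gene lists and cell type markers could not be tested without gene names, and no sequence is given for the same reason.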

Additional observations from a re-analysis of the deposited data

Results flagged for a closer look

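For 44 genes Pachon and Tinaja departed from Surface in opposite directions, which drew attention because the same contrast with Surface went up in one population and down in the other. Pachon was above Surface and Tinaja below it in 23, and the reverse held in 21. The 44 were 0.288% of the genes tested. By contrast, 1175 genes (7.69%) were called against Surface in both caves on the same side. The difference between the caves is the test of unequal departure from Surface, and all 44 were called by it, with a median log2 size of 4.31 and a range from 1.33 to 11.4 in fitted values. Since the 2 departures add up to the difference between the caves, such genes nearly had to be called. With 2 libraries a population, no group was large enough to test for a library far from the others.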

How the results depend on the processing

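All 17 named genes kept their direction over 255 values under alternatives, and 11 of them stayed called throughout. RLE factors, the count minimum of 50, the fit without robust estimation and the fit with only cave libraries kept the counts of calls in each direction within 1.5 times. Total-count scaling gave 2771 calls, 2300 higher and 471 lower, and 628 beyond 2-fold. With it, the classes against Surface held 1368 (only Pachon), 250 (both) and 679 (neither), and calls numbered 425 below 1 CPM, 1374 from 1 to 10, 842 from 10 to 100, 118 from 100 to 1000 and 12 above. DESeq2 gave 260 for both and 462 for neither, and no filter gave 464 for neither. With only cave libraries 2 genes of at least 1000 CPM were called. Genes on in Pachon and off in Tinaja numbered 12 at 5 CPM and 26 with 0 reads as off, and the reverse 8 and 17.

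Leaving out 1 library at a time gave 352 to 1360 calls, 147 to 650 higher, 181 to 710 lower and 162 to 420 beyond 2-fold. The classes ranged from 139 to 357 (only Pachon), 110 to 310 (only Tinaja), 52 to 128 (both) and 29 to 574 (neither). By level, the ranges were 37 to 230 below 1 CPM, 187 to 685 from 1 to 10, 107 to 380 from 10 to 100, 9 to 63 from 100 to 1000 and 2 to 4 above. These fits have fewer samples, and the cause of the changes was not tested further.

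The replicate numbers do not pair the samples by any label. Deviations of same-numbered libraries correlated at -0.115 between Pachon and Tinaja. A replicate block gave 1043 calls, 511 higher and 532 lower. The crossed pairing, added after seeing the data, gave 1344 calls.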
